A study of Mus musculus with 14 samples.

Results

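The 10 genes described here encode the metalloproteinases and sheddases that the tissue inhibitors of metalloproteinases (TIMPs) act on, with 1 further inhibitor of the same enzymes. They were taken by symbol from a count table of 43346 genes, and each symbol matched 1 mouse Ensembl identifier. They are the secreted gelatinases Mmp2 and Mmp9, the transmembrane enzymes Mmp14, Mmp15, Mmp16 and Mmp24, the lipid-anchored enzyme Mmp17, the inhibitor Reck and the sheddases Adam10 and Adam17. Counts were found for 9 of the 10, and the same 9 passed the filter on low counts and were tested; Mmp9 had no count in any library.

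The libraries came from live GFP-positive cells of the hippocampus of wild-type C57BL/6 mice at day 14. The submitters call the cells abGCs, adult-born granule cells, which are the neurons that the dentate gyrus adds in adult life. DREADD Pilo (3 libraries) and DREADD Sham (4 libraries) held cells with a designer receptor, which the labels describe as silencing the cells; the library names of DREADD Pilo point to hM4Di, an inhibitory receptor of this kind. CAG-GFP Pilo (4 libraries) and CAG-GFP Sham (3 libraries) held cells labelled with GFP from the CAG promoter, a promoter active in most cell types and so no marker of granule cells. Mice of both Pilo groups had seizures set off by 300 mg/kg pilocarpine after 2 mg/kg scopolamine methyl nitrate and 2 mg/kg terbutaline, and diazepam at 10 mg/kg ended status epilepticus after 3 h. The Sham groups had no seizures, and all 4 groups received clozapine-N-oxide (CNO), the drug that activates the receptor, so no group shows the cells without CNO. Each library was made with SMART-Seq v4, a full-length method for small inputs, from 800 to 1000 cells. The labels give no age for the mice. They do not say either whether each library came from its own animal, and every p-value here reflects the scatter of these libraries alone, which may be technical.

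Metalloproteinases of the MMP family cut proteins of the extracellular matrix and of the cell surface. They are made as inactive precursors. MMP14, held in the membrane, activates the MMP2 precursor in a complex that includes TIMP2, and TIMPs block the active site of the mature enzymes. ADAM10 and ADAM17 are sheddases: they cut the outer part from membrane proteins such as Notch receptors, the amyloid precursor protein and tumour necrosis factor, and TIMP3 inhibits ADAM17. In the brain these enzymes are known for roles in cell migration, neurite growth and the turnover of the matrix around synapses.

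All of the enzymes bind a zinc ion at the active site through 3 histidines of a short consensus. The coding sequence of that stretch is shown for the members because TIMPs bind at the zinc it holds. The consensus was found in the longest coding transcript of 9 members in GENCODE M21, and of 69 of the 21806 coding genes scanned (0.316%). Each stretch is 33 bases, 5′ to 3′ on the coding strand, with the codons of the 3 histidines and of the catalytic glutamate in capitals.
Mmp2: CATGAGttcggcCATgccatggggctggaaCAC
Mmp9: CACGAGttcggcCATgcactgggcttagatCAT
Mmp14: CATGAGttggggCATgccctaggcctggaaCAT
Mmp15: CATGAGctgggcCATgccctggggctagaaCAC
Mmp16: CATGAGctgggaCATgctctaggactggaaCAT
Mmp24: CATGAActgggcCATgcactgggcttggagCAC
Mmp17: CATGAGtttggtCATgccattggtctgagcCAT
Adam10: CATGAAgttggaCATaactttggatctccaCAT
Adam17: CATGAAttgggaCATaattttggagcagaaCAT

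Among the MMPs, 20 to 29 of the 33 bases were the same in any pair, with 29 shared by Mmp2 and Mmp15 and by Mmp14 and Mmp16. Adam10 and Adam17 shared 26 bases with each other. With an MMP, Adam10 shared 17 to 20 and Adam17 19 to 24. Reck, which inhibits several MMPs and is no protease, held no such stretch in its 1 coding transcript. Of the 3 coding transcripts of Mmp16 only 1 held it, and gene counts do not separate transcripts.

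On GRCm38, with the gene bounds of GENCODE M21, Mmp2 lies at chr8:92827291-92853420 and Mmp9 at chr2:164940780-164955850. The transmembrane enzymes lie apart, Mmp14 at chr14:54431612-54445364, Mmp15 at chr8:95352268-95375080, Mmp16 at chr4:17852893-18119145 and Mmp24 at chr2:155775342-155818366. Mmp17 lies at chr5:129584169-129611099, Reck at chr4:43875530-43944806 and Adam10 at chr9:70678997-70780229. These 9 genes are on the plus strand, and Adam17, at chr12:21323509-21373632, is on the minus strand.

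Total counts were 12562178 to 18368478 in DREADD Pilo, 10613291 to 38614639 in CAG-GFP Pilo, 15261512 to 33210468 in DREADD Sham and 27965232 to 28432365 in CAG-GFP Sham. The libraries stood apart in ways that follow the groups only in part. In 7 libraries 4.33 to 8.12% of counts fell on pseudogenes (library set 2, with DREADD Sham 3 and 4, CAG-GFP Pilo 1 and 2, and every DREADD Pilo library), whereas the other 7 had 0.117 to 0.2% there (library set 1). DREADD Pilo has no library in set 1 and CAG-GFP Sham none in set 2, so between these groups set and group cannot be told apart. CAG-GFP Pilo 4 had counts for only 9372 genes, against 14512 to 20863 in the rest. Granule cell markers were present in each group, at summed levels of 106 to 761 CPM (depth-scaled counts) in DREADD Pilo, 1627 to 5550 in CAG-GFP Pilo, 510.0 to 2149 in DREADD Sham and 694 to 969 in CAG-GFP Sham. Markers of glia were present too. The 12 astrocyte markers summed to 801 to 6482 CPM in the other 3 groups, against 28118 to 29584 CPM in CAG-GFP Sham. The 12 microglia markers summed to 226 to 32744 CPM in DREADD Pilo and 6379 to 11917 CPM in CAG-GFP Pilo. In DREADD Sham the microglia sum was 804 to 12231 CPM, and in CAG-GFP Sham 5261 to 5491 CPM. Choroid plexus and ependymal markers reached 191534 CPM in DREADD Pilo 3. C1ql2 and Plk5, 2 of the 10 granule cell markers, were at 0 in all CAG-GFP Sham libraries. Prox1, C1ql2, Slc17a7 and Rbfox3 were at 0 in DREADD Pilo 3, as were the immature neuron markers Dcx, Neurod1, Tubb3 and Calb2. In CAG-GFP Pilo 4 the granule cell markers Prox1 and Dsp were at 0. In such bulk libraries fewer cells of a type and less RNA per cell cannot be told apart.

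Compared per length, the sheddase Adam10 was the most abundant member. Over the 14 libraries it averaged 11.9 ± 6.17 CPM per kilobase of exon (SD), followed by Adam17 at 6.06 ± 3.87, Mmp2 at 5.33 ± 5.38 and Mmp24 at 4.37 ± 3.24 CPM per kilobase. Mmp16 (2.74 ± 2.74), Mmp17 (2.21 ± 1.74), Mmp14 (1.39 ± 1.16), Reck (1.18 ± 1.21) and Mmp15 (0.912 ± 0.920) were lower on the same scale. The library ranges of neighbours in this order overlapped, so the order of neighbours is not set beyond the spread. Adam10 stood first in DREADD Pilo, DREADD Sham and CAG-GFP Sham. In CAG-GFP Pilo, Mmp2 (8.54 ± 7.98 CPM per kilobase, n = 4) stood beside Adam10 (8.38 ± 1.69), whereas Mmp2 was last with Mmp9 in CAG-GFP Sham.

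**Figure D1:**
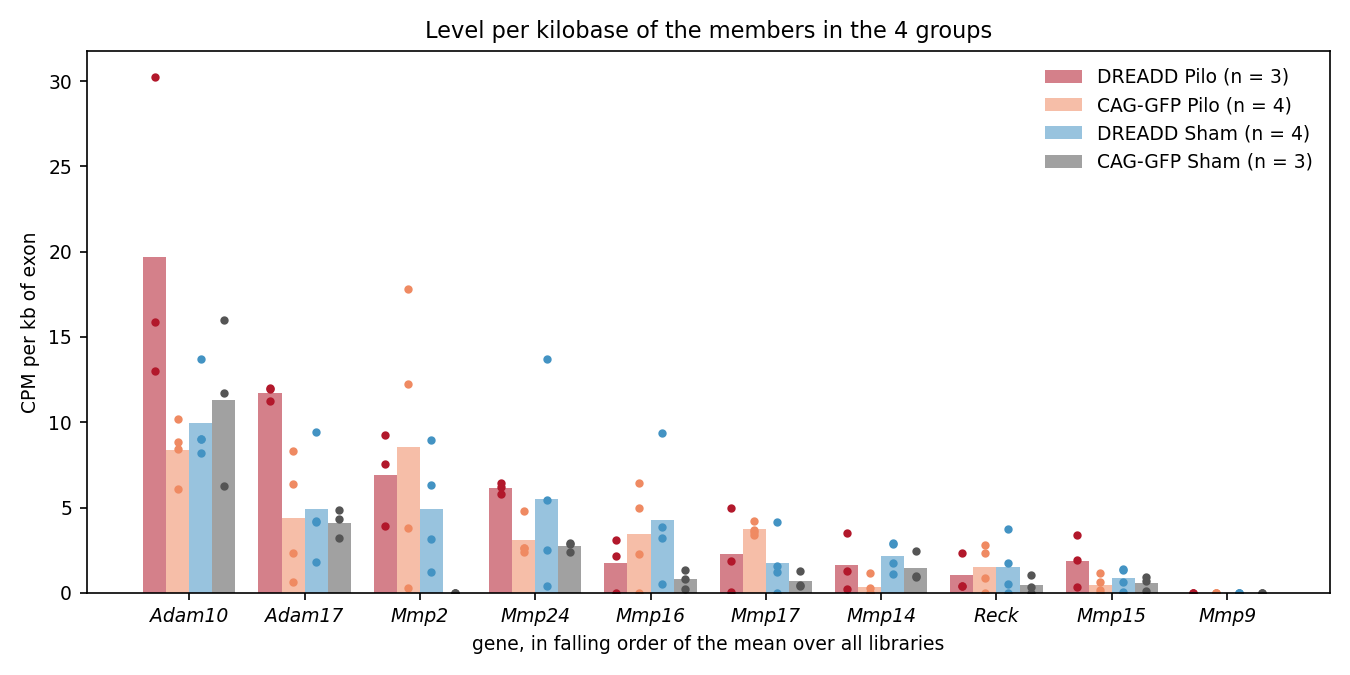
Level of each member in CPM per kilobase of exon (y axis, linear, from 0) for the 4 groups; bars are group means and points are libraries. Adam10 has the highest mean in 3 groups, Mmp2 is absent from CAG-GFP Sham, and Mmp9 is at 0 throughout.

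Gelatinases. Mmp2, a secreted gelatinase that cuts collagen IV and other matrix proteins, was found in every library of 3 groups and in none of the fourth. Its level was 31.3, 13.3 and 25.5 CPM in DREADD Pilo 1 to 3, and then 41.3, 12.8, 0.913 and 60.1 CPM in CAG-GFP Pilo 1 to 4. In DREADD Sham 1 to 4 it was 10.7, 4.02, 21.4 and 30.3 CPM, and in CAG-GFP Sham it was 0 in all 3 libraries. The 11 libraries with Mmp2 therefore did not overlap with CAG-GFP Sham. Over all genes tested, 19.8% were higher without overlap in DREADD Pilo, 6.55% in CAG-GFP Pilo and 9.01% in DREADD Sham, each against CAG-GFP Sham. The lowest of them, CAG-GFP Pilo 3, held 37 counts, while 0 counts in CAG-GFP Sham allow up to 0.0505 CPM over the group (3 counts, counting error only).

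Against that limit Mmp2 was at least 463-fold higher in DREADD Pilo than in CAG-GFP Sham, at least 570.3-fold higher in CAG-GFP Pilo and at least 329-fold higher in DREADD Sham. Leaving out CAG-GFP Pilo 4 lowers the second bound to 363. With set 1 alone, which CAG-GFP Sham belongs to, the bounds were 604 for CAG-GFP Pilo and 146 for DREADD Sham. The first of these rests on CAG-GFP Pilo 4 at 60.1 CPM, since CAG-GFP Pilo 3, also in set 1, had 0.913 CPM. edgeR's quasi-likelihood test called Mmp2 higher in each of these 3 comparisons, with Benjamini-Hochberg adjusted p = 0.0414 for DREADD Pilo, 0.0358 for CAG-GFP Pilo and 0.0451 for DREADD Sham. Over all 18676 genes tested it called 0.225%, 0.241% and 0.3% in these comparisons. They share the CAG-GFP Sham libraries. Pairs of these libraries were more alike (r of log2 CPM 0.863 to 0.868) than pairs within the other groups (0.501 to 0.796). Whether they are separate animals is not given, so their zeros may not be independent. The adjusted p lay close to 0.05 and the call was lost in many alternative fits: 10 of 17 for CAG-GFP Pilo, with adjusted p of 9.39e-11 to 0.973, 10 of 17 for DREADD Sham, with 1.57e-09 to 0.954, and 8 of 15 for DREADD Pilo, with 1.15e-09 to 0.902. Each fit without 1 CAG-GFP Sham library ended all 3 calls, with adjusted p of 0.168 to 0.190 (edgeR, Benjamini-Hochberg). Leaving out DREADD Pilo 1 or 2, CAG-GFP Pilo 1, 2 or 4, or any 1 DREADD Sham library ended the call of that group, with adjusted p of 0.0566 to 0.123 (edgeR).

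The 3 groups that had Mmp2 overlapped with each other. DREADD Pilo averaged 23.4 ± 9.19 CPM (SD, n = 3) and CAG-GFP Pilo 28.8 ± 26.9 CPM (n = 4). The fitted log2 fold change was -0.30 ± 1.18 (SE; edgeR adjusted p = 0.997), and it turned positive without CAG-GFP Pilo 4 (0.35). Against DREADD Sham (16.6 ± 11.6 CPM, n = 4) the log2 fold change of DREADD Pilo was 0.49 ± 1.17 (edgeR adjusted p = 1), and it was -0.14 within library set 2. The interaction of seizures and DREADD is the Pilo against Sham difference in DREADD cells minus that in CAG-GFP cells. For Mmp2 it was -11.92 ± 2.32 on the log2 scale (edgeR adjusted p = 0.219). That value rests on the CAG-GFP Sham libraries at 0 and so depends on the prior count; DESeq2 called it (adjusted p = 2.12e-06).

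Markers of oligodendrocyte precursors, oligodendrocytes and immature neurons were split between the groups as Mmp2 was, in most libraries. The 9 markers of oligodendrocyte precursors summed to 48.3 to 1726 CPM in DREADD Pilo, 143 to 1160 CPM in CAG-GFP Pilo, 439 to 1027 CPM in DREADD Sham and 25.7 to 46.0 CPM in CAG-GFP Sham, where Cspg4 and Neu4 were at 0 in all 3 libraries. CAG-GFP Pilo 3, the lowest library with Mmp2, also had the lowest marker sum of its group. DREADD Pilo 3 went the other way: its marker sum was 48.3 CPM, with Olig2, Sox10 and Gpr17 at 0, while it held 25.5 CPM of Mmp2. The 10 markers of pericytes and smooth muscle summed to 13.0 to 840.3 CPM in DREADD Pilo and 10.4 to 39.0 CPM in CAG-GFP Pilo. They summed to 15.1 to 1541 CPM in DREADD Sham and 25.2 to 27.7 CPM in CAG-GFP Sham, where Myh11 and Abcc9 were at 0. These ranges overlapped, and the lowest group median was in CAG-GFP Pilo, at 17.7 CPM against 26.1 CPM in CAG-GFP Sham. Abcc9 was at 0 in CAG-GFP Pilo too. The 12 oligodendrocyte markers summed to 422 to 44915 CPM in DREADD Pilo, 1415 to 38697 CPM in CAG-GFP Pilo, 19397 to 41634 CPM in DREADD Sham and 621 to 721 CPM in CAG-GFP Sham. The 10 markers of neuroblasts and immature neurons summed to 16.1 to 414 CPM in DREADD Pilo, 249 to 586 CPM in CAG-GFP Pilo, 347 to 1608 CPM in DREADD Sham and 52.1 to 82.7 CPM in CAG-GFP Sham. In both lists DREADD Pilo 3 was the library that lay below CAG-GFP Sham. Markers of microglia, endothelium, interneurons and blood cells had their lowest group medians in CAG-GFP Sham as well, at 5475, 19.3, 8.29 and 15.6 CPM. The 6 fibroblast markers overlapped, at 2.77 to 46.8 CPM in DREADD Pilo, 1.22 to 124 CPM in CAG-GFP Pilo, 14.01 to 44.1 CPM in DREADD Sham and 24.3 to 107 CPM in CAG-GFP Sham. The part of these cells in the difference of Mmp2 was not tested.

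**Figure D2:**
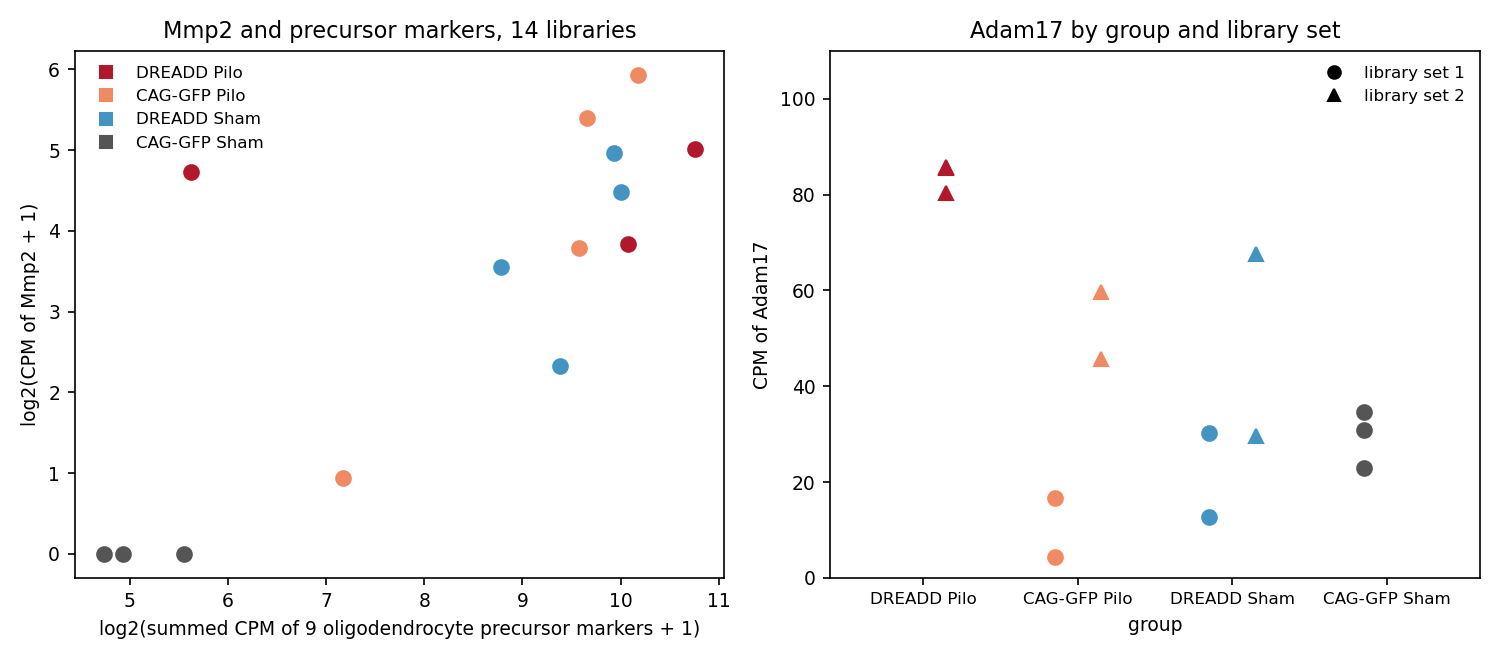
Left: log2(CPM + 1) of Mmp2 against log2(summed CPM + 1) of 9 oligodendrocyte precursor markers, 1 point per library; the 3 CAG-GFP Sham libraries lie at 0, and DREADD Pilo 3 has Mmp2 with few precursor markers. Right: CPM of Adam17 by group and library set; within CAG-GFP Pilo the set 2 libraries (45.6 and 59.7) lie above the set 1 libraries (4.38 and 16.7).

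Mmp9, the other gelatinase and a gene often measured after seizures, had 0 counts in all 14 libraries. This allows up to 0.00903 CPM over all libraries and up to 0.0561 to 0.334 CPM in a single one. No comparison of Mmp9 between groups was possible at this depth.

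Transmembrane enzymes. Mmp14, which activates the Mmp2 precursor, had 7.46, 1.26 and 20.7 CPM in DREADD Pilo 1 to 3, with 6.96, 0, 1.53 and 0 CPM in CAG-GFP Pilo 1 to 4. It had 10.5, 6.52, 17.4 and 17.2 CPM in DREADD Sham 1 to 4, and 5.42, 5.92 and 14.8 CPM in CAG-GFP Sham 1 to 3. CAG-GFP Pilo was thus the lowest group and 2 of its 4 libraries had none, though its highest library lay inside the range of each other group. Neither the fitted log2 fold change of CAG-GFP Pilo against CAG-GFP Sham (-2.04 ± 1.78, edgeR adjusted p = 0.615) nor that of DREADD Pilo against CAG-GFP Pilo (2.21 ± 1.78, adjusted p = 0.958) passed. In the 2 CAG-GFP Pilo libraries without Mmp14, Mmp2 was present at 12.8 and 60.1 CPM.

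Mmp15, a near relative of Mmp14, had 10.4, 1.86 and 18.3 CPM in DREADD Pilo 1 to 3, 6.30, 3.32, 0.790 and 0 CPM in CAG-GFP Pilo 1 to 4, 7.32, 0.357, 3.33 and 7.53 CPM in DREADD Sham 1 to 4, and 0.547, 3.65 and 5.14 CPM in CAG-GFP Sham 1 to 3. All of the groups overlapped. The largest of its pairwise log2 fold changes was 1.97 ± 1.82 in DREADD Pilo against CAG-GFP Pilo (edgeR adjusted p = 0.974).

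Mmp16, a brain-enriched membrane enzyme, varied widely within groups. It had 26.9, 18.9 and 0 CPM in DREADD Pilo 1 to 3, with 19.7, 56.0, 43.1 and 0 CPM in CAG-GFP Pilo 1 to 4. In DREADD Sham 1 to 4 it had 81.4, 27.8, 4.67 and 33.5 CPM, and in CAG-GFP Sham 1 to 3 it had 1.79, 7.01 and 11.7 CPM. CAG-GFP Sham was low in all 3 libraries, but each of the other groups had at least 1 library inside or below its range. The log2 fold change was 2.12 ± 1.86 in CAG-GFP Pilo and 2.43 ± 1.89 in DREADD Sham, each against CAG-GFP Sham, and neither passed (edgeR adjusted p = 0.618 and 0.545). limma voom turned the first round, to -1.73. Of the libraries at 0, DREADD Pilo 3 was also that with the most choroid plexus RNA and CAG-GFP Pilo 4 that with the fewest genes.

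Mmp24, a membrane enzyme known mainly from neurons, had the smallest relative spread of the detected MMPs in DREADD Pilo and in CAG-GFP Sham. It had 30.2, 29.2 and 27.2 CPM in DREADD Pilo 1 to 3, with 22.5, 12.3, 11.1 and 12.3 CPM in CAG-GFP Pilo 1 to 4. It had 1.92, 11.7, 64.3 and 25.5 CPM in DREADD Sham 1 to 4, and 13.4, 11.3 and 13.6 CPM in CAG-GFP Sham 1 to 3. DREADD Pilo lay above CAG-GFP Pilo and CAG-GFP Sham without overlap, as 5.69% and 19.8% of all genes did, and inside the range of DREADD Sham. Scaled by library total, DREADD Pilo and CAG-GFP Pilo overlapped. The log2 fold changes were 0.99 ± 0.92 against CAG-GFP Pilo and 1.18 ± 1.01 against CAG-GFP Sham, and neither passed (edgeR adjusted p = 0.974 and 0.595). With library set as a term they were 0.10 against CAG-GFP Pilo and -0.47 against CAG-GFP Sham. In both groups with libraries of each set, the mean was higher in set 2: 17.4 against 11.7 CPM in CAG-GFP Pilo and 44.9 against 6.82 CPM in DREADD Sham.

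Lipid-anchored enzyme and inhibitor. Mmp17, held in the membrane by a GPI anchor, had 12.4, 32.9 and 0.446 CPM in DREADD Pilo 1 to 3, with 22.6, 24.5, 23.7 and 27.7 CPM in CAG-GFP Pilo 1 to 4. It had 27.6, 10.5, 0 and 7.96 CPM in DREADD Sham 1 to 4, and 8.41, 2.57 and 3.04 CPM in CAG-GFP Sham 1 to 3. Every CAG-GFP Pilo library lay above every CAG-GFP Sham library, as was so for 6.55% of all genes. Within CAG-GFP Pilo the 2 library sets gave nearly the same level. Within DREADD Sham they did not, with means of 19.1 CPM in set 1 and 3.98 CPM in set 2. The log2 fold change of CAG-GFP Pilo against CAG-GFP Sham was 2.40 ± 1.61, which did not pass (edgeR adjusted p = 0.472). Granule cell markers were also higher there, at 1627 to 5550 CPM in CAG-GFP Pilo against 694 to 969 CPM in CAG-GFP Sham, and their part in the difference was not tested. Among the genes with the most similar profile over the 14 libraries was the calcium channel gene Cacna1e (Pearson r = 0.942).

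Reck, a membrane-anchored inhibitor of MMP2, MMP9 and MMP14, was low and uneven. It had 1.89, 1.86 and 11.1 CPM in DREADD Pilo 1 to 3, 11.1, 13.5, 4.17 and 0 CPM in CAG-GFP Pilo 1 to 4, 2.51, 8.31, 0 and 17.9 CPM in DREADD Sham 1 to 4, and 0, 1.63 and 5.03 CPM in CAG-GFP Sham 1 to 3. The groups overlapped throughout. Its log2 fold changes had standard errors of 2.21 to 2.37 in the 5 pairwise comparisons, so changes of several fold were not detectable at this depth and spread.

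**Figure D3:**
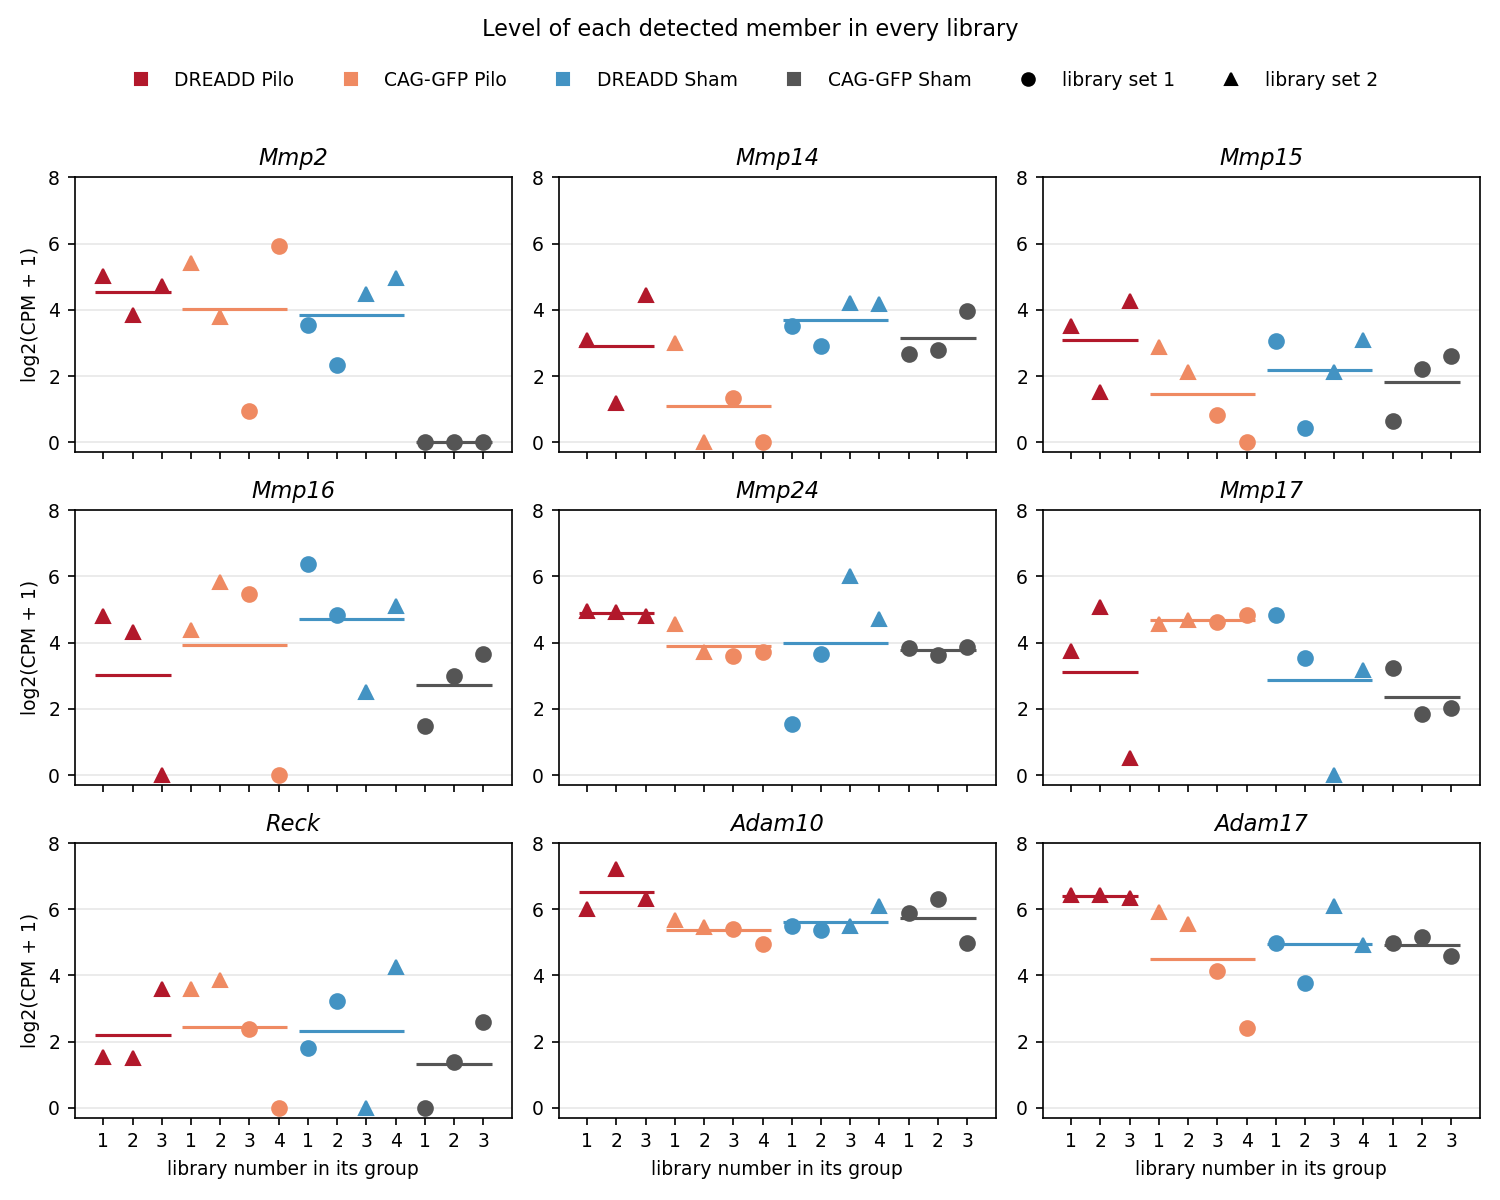
log2(CPM + 1) of the 9 detected members (y axis) in each of the 14 libraries (x axis); lines are group means on that scale, circles are library set 1 and triangles set 2. Mmp2 is at 0 in CAG-GFP Sham, and Adam10 shows the least spread between libraries.

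Sheddases. Adam10 and Adam17 were present in all 14 libraries, and both had their highest group level in DREADD Pilo. Adam10, the main sheddase of Notch and of the amyloid precursor protein, had 63.9, 148.7 and 77.9 CPM in DREADD Pilo 1 to 3, with 49.97, 43.4, 41.4 and 30.0 CPM in CAG-GFP Pilo 1 to 4. It had 44.2, 40.2, 44.2 and 67.4 CPM in DREADD Sham 1 to 4, and 57.6, 78.6 and 30.7 CPM in CAG-GFP Sham 1 to 3. DREADD Pilo lay above all CAG-GFP Pilo libraries, as was so for 5.69% of all genes, and overlapped with both Sham groups.

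Adam10 averaged 96.8 ± 45.5 CPM in DREADD Pilo (n = 3), against 41.2 ± 8.31 CPM in CAG-GFP Pilo (SD, n = 4), a log2 fold change of 1.23 ± 0.53. The unadjusted p was 0.0354 and the edgeR adjusted p 0.882, so it did not pass over all genes. Against DREADD Sham (49.0 ± 12.4 CPM, n = 4) the log2 fold change of DREADD Pilo was 0.98 ± 0.53 (edgeR adjusted p = 0.996), and the interaction was 1.42 ± 0.75 (adjusted p = 0.458). In CAG-GFP Pilo against CAG-GFP Sham (55.6 ± 24.0 CPM, n = 3) it was -0.43 ± 0.53 (edgeR adjusted p = 0.748). Within library set 2, DREADD Pilo against CAG-GFP Pilo gave 1.07.

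Adam17, which releases tumour necrosis factor and ligands of the EGF receptor, had 85.6, 85.7 and 80.4 CPM in DREADD Pilo 1 to 3, with 59.7, 45.6, 16.7 and 4.38 CPM in CAG-GFP Pilo 1 to 4. It had 30.3, 12.8, 67.6 and 29.6 CPM in DREADD Sham 1 to 4, and 30.8, 34.7 and 23.0 CPM in CAG-GFP Sham 1 to 3. With TMM factors the 3 DREADD Pilo libraries lay above the other 11 libraries. Scaled by library total they overlapped with CAG-GFP Pilo and with DREADD Sham. Of all genes, 5.69% were higher without overlap in DREADD Pilo against CAG-GFP Pilo, 4.39% against DREADD Sham and 19.8% against CAG-GFP Sham. Means were 83.9 ± 3.05 CPM in DREADD Pilo, 31.6 ± 25.5 CPM in CAG-GFP Pilo, 35.1 ± 23.2 CPM in DREADD Sham and 29.5 ± 5.97 CPM in CAG-GFP Sham (SD).

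The log2 fold change of Adam17 in DREADD Pilo was 1.41 ± 0.78 against CAG-GFP Pilo, 1.26 ± 0.78 against DREADD Sham and 1.51 ± 0.85 against CAG-GFP Sham, and none passed (edgeR adjusted p = 0.882, 1 and 0.343). limma voom gave 2.89 against CAG-GFP Pilo, and the fit with library set as a term 0.47 against DREADD Sham. Library set moved with the level: within CAG-GFP Pilo, set 2 averaged 52.6 CPM and set 1 10.5 CPM, and within DREADD Sham the means were 48.6 and 21.5 CPM. Within set 2 alone, with TMM factors, the DREADD Pilo libraries still lay above those of CAG-GFP Pilo (45.6 and 59.7 CPM) and of DREADD Sham (29.6 and 67.6 CPM). The log2 fold changes within set 2 were 0.69 and 0.78. With library set as a term the log2 fold change against CAG-GFP Sham was -0.24, in a fit where no library of either group shares a set with the other. With only the libraries of those 2 groups in the fit, Adam17 passed against CAG-GFP Sham (edgeR adjusted p = 0.0439).

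**Figure D4:**
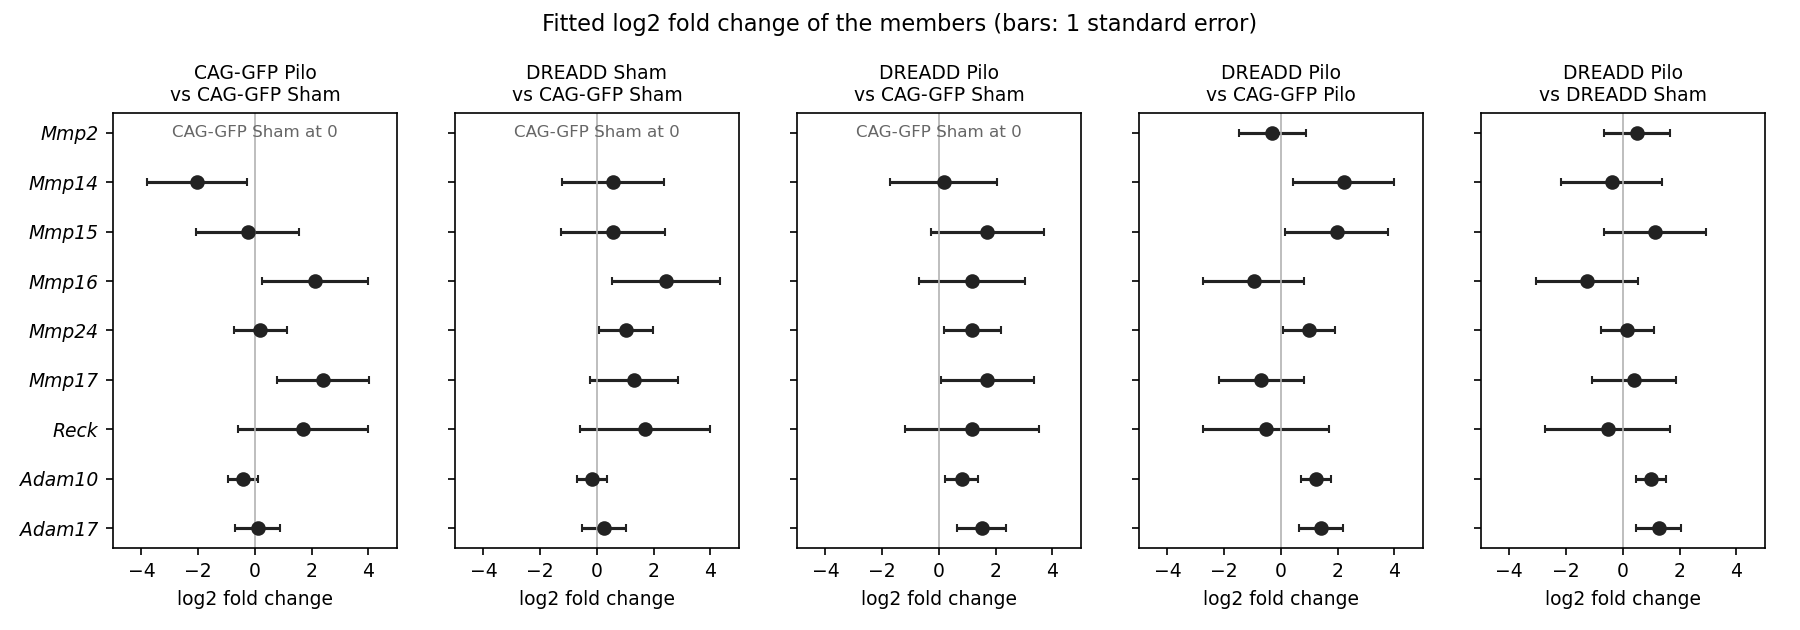
Fitted log2 fold change (x axis) of the tested members in the 5 pairwise comparisons, with bars of 1 standard error; Mmp2 has no point against CAG-GFP Sham, where that group is at 0. Adam10 and Adam17 have the shortest bars in each comparison and lie above 0 in the 3 panels with DREADD Pilo.

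Comparison by comparison, few members stood out from the rest of the genes tested. CAG-GFP Pilo against CAG-GFP Sham compared GFP-only cells with and without seizures. These groups differed in library set and cell type markers too, so a difference cannot be assigned to seizures alone. Here 1 of 9 tested members passed (Mmp2, higher), against 0.241% of all 18676 genes. Both Mmp2 and Mmp17 were higher without overlap, which held for 6.55% of all genes. The median log2 fold change of the tested members was 0.19, beside 0.41 over all genes tested.

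DREADD Pilo against CAG-GFP Pilo compared cells with and without the silencing receptor after seizures. The groups also differed in library set and cell type markers, so a difference cannot be assigned to silencing alone. With edgeR 0 of 9 members passed, as did 0% of all genes. Over all genes 1001 had an unadjusted edgeR p under 0.05, and Adam10 (0.0354) was the only member among them. DESeq2 called 171 genes and limma voom 0, with no member among those called. Mmp24, Adam10 and Adam17 were higher without overlap, against a background of 5.69%. Scaled by library total in place of TMM factors, only Adam10 remained so. The tested members' median log2 fold change was 0.99, beside 0.28 over all genes tested.

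DREADD Sham against CAG-GFP Sham compared cells with and without the receptor, with CNO and no seizures. Library set and cell type markers differed here as well, so a difference cannot be assigned to the receptor alone. Of 9 members 1 passed (Mmp2, higher), against 0.3% of all genes. Only Mmp2 was higher without overlap, where the background was 9.01%. In DREADD Pilo against CAG-GFP Sham, Mmp2 again passed, against 0.225% of all genes, and Mmp2, Mmp24 and Adam17 were higher without overlap, against 19.8%. The medians of the members were 1.02 and 1.18 on the log2 scale, beside 0.53 and 0.66 over all genes tested.

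DREADD Pilo against DREADD Sham compared cells that held the receptor, with and without seizures. Library set differed between them, so a difference cannot be assigned to seizures alone. With edgeR 0 members passed and 0% of all genes did. Over all genes 967 had an unadjusted p under 0.05, DESeq2 called 158 and limma voom 0, again with no member. Adam17 was higher without overlap, against 4.39%, and scaled by library total it overlapped. The tested members' median log2 fold change was 0.40, beside 0.07 over all genes tested. For the interaction edgeR called 0 members and 0% of genes, with 2191 at an unadjusted p under 0.05, 1456 called by DESeq2 and 37 by limma voom. Scaling by library total shifted every log2 fold change by -0.35 to 0.77, depending on the comparison, so directions under about that size depend on the scaling.

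Promoter sequences were matched for 6 members, Mmp14, Mmp15, Mmp24, Reck, Adam10 and Adam17. Those of Mmp24, Adam10 and Adam17 are shown because these members were higher without overlap in DREADD Pilo against CAG-GFP Pilo. So were 5.69% of all genes. Over the 14 libraries r was 0.34 for Mmp24 and Adam10, 0.46 for Mmp24 and Adam17 and 0.66 for Adam10 and Adam17. They are RefSeq sequences on GRCm38.p6, from 250 bases before to 50 after the gene start, 5′ to 3′ on the gene's strand. Capitals mark the GC box (GGGCGG) and the CCAAT box (CCAAT), on both strands and with overlaps joined.
Mmp24 (chr2:155775092-155775391, plus strand): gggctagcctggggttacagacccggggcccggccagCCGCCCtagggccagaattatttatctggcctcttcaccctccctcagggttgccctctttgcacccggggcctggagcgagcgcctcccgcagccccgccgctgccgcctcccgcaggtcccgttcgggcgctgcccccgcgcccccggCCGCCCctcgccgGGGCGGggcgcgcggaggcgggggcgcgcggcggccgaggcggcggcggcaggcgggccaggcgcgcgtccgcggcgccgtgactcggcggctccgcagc
Adam10 (chr9:70678732-70679031, plus strand): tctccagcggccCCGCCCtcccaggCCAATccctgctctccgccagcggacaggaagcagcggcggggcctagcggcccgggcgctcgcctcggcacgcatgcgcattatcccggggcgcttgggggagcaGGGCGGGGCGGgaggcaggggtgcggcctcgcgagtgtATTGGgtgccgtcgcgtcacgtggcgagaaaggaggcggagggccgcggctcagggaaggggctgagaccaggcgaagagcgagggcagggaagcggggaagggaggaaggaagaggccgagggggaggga
Adam17 (chr12:21373583-21373882, minus strand): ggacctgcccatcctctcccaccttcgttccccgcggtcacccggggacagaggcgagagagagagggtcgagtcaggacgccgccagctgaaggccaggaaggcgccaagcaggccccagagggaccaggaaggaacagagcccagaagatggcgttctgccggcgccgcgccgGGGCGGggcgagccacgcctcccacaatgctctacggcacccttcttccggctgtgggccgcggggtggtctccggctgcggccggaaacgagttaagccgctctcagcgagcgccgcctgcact

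These promoters held 44, 32 and 30 CG pairs, in the order Mmp24, Adam10 and Adam17, beside a median of 7 over 32851 promoters of the same length. The other 3 were above that median too, with 23 CG pairs in Reck, 22 in Mmp15 and 10 in Mmp14. The GC box was found in all 6, 3 times in Mmp24, Adam10 and Reck, 2 times in Mmp14 and once in Mmp15 and Adam17, and 35.7% of all promoters held it. The CCAAT box was found in Adam10, Reck and Mmp14, and in 37.4% of all promoters. The TATA box (TATAAA, 13.6% of all promoters), the cyclic AMP response element (TGACGTCA, 1.79%) and the AP-1 site (TGACTCA, 5.20%) had no match in these 6 windows, on either strand.

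Across the 14 libraries the members did not rise and fall as 1 group. Pearson correlations of log2 CPM between pairs of the 9 tested members ran from -0.55 for Mmp14 and Mmp17 to 0.79 for Mmp15 and Adam17, and Adam10 and Adam17 had r = 0.66. Among the genes with the most similar profile, of 11458 compared, were Sqstm1 (r = 0.929) and Ackr3 (0.929) for Mmp2, and Plppr5 (0.955) for Mmp16. For Mmp24 they were BC029722 (0.980) and Crk (0.958), and for Adam17 Snap23 (0.935). These values are descriptions over libraries that share groups, sets and depth.

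The inhibitors and partners of these enzymes were followed as lists. Of the 4 TIMP genes, 0 passed edgeR in any of the 6 comparisons, and 1 to 2 had an unadjusted p under 0.05 in each. limma voom called Timp4 lower in DREADD Pilo, CAG-GFP Pilo and DREADD Sham against CAG-GFP Sham, and Timp1 lower in DREADD Sham. DESeq2 called Timp4 lower in DREADD Pilo and in DREADD Sham against CAG-GFP Sham, and Timp3 higher in DREADD Pilo against CAG-GFP Pilo and in the interaction. Timp3, which inhibits both MMPs and ADAM17, averaged 375 ± 297 CPM in DREADD Pilo and 42.4 ± 23.4 CPM in CAG-GFP Pilo. Its mean was 116 ± 104 CPM in DREADD Sham and 176 ± 3.31 CPM in CAG-GFP Sham. DREADD Pilo 1 to 3 had 63.5, 406 and 656 CPM of Timp3. The first lay inside the CAG-GFP Pilo range of 21.1 to 74.0 CPM, so these groups overlapped. Timp2, the partner of Mmp14 in activating Mmp2, averaged 154 ± 101 CPM in DREADD Pilo and 73.7 ± 16.6 CPM in CAG-GFP Pilo. The mean of Timp2 was 59.3 ± 37.2 CPM in DREADD Sham and 66.5 ± 11.2 CPM in CAG-GFP Sham. In DREADD Pilo 1 to 3 Timp2 was at 112, 81.5 and 270 CPM. DREADD Pilo 3, highest for both genes, had the most choroid plexus RNA, whose part was not tested. Timp4 was at 16.5 to 260.4 CPM in the other 3 groups and at 539 to 792 CPM in CAG-GFP Sham, and Timp1 at 0 to 2.06 CPM in the other 3 groups and at 7.06 to 15.5 CPM in CAG-GFP Sham.

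None of the other pathway genes passed edgeR either: 0 of 5 tested other MMPs, 0 of 9 other ADAMs, 0 of 15 ADAMTS enzymes, 0 of 12 activators and cofactors, 0 of 20 substrates of ADAM10 or ADAM17 and 0 of 14 substrates of MMPs, in each of the 6 comparisons. Of these 75 genes, 4 to 14 had an unadjusted p under 0.05 in each. Against CAG-GFP Sham, DESeq2 called 11 in DREADD Pilo, 13 in CAG-GFP Pilo and 9 in DREADD Sham, and limma voom 3, 2 and 4 in the same comparisons; in the interaction DESeq2 called 2 and limma voom 0, and in the other comparisons both called 0. The smallest edgeR adjusted p belonged to Bcan, brevican, a matrix proteoglycan that MMPs cut. It averaged 68.3 ± 50.8 CPM in DREADD Pilo, 76.6 ± 31.0 CPM in CAG-GFP Pilo, 112 ± 24.9 CPM in DREADD Sham and 653 ± 103 CPM in CAG-GFP Sham, with edgeR adjusted p of 0.0950, 0.0698 and 0.109 for the 3 groups against CAG-GFP Sham. It passed as lower in 4 alternative fits of each comparison, DESeq2 and limma voom among them, and the adjusted p over all alternatives ran from 0.000218 to 0.902 for DREADD Pilo, 0.000136 to 0.973 for CAG-GFP Pilo and 0.000467 to 0.954 for DREADD Sham. Astrocyte markers had the same split of groups, and their part in the difference was not tested. Mmp28 was at 1.54 to 3.23 CPM in DREADD Pilo and at 0 in all 4 CAG-GFP Pilo libraries (edgeR adjusted p = 0.882). Tnfrsf1a, a receptor that ADAM17 sheds, was at 12.5 to 81.4 CPM in CAG-GFP Pilo and at 5.27 to 6.55 CPM in CAG-GFP Sham, a log2 fold change of 3.01 ± 0.91 (edgeR adjusted p = 0.243); DESeq2 called it (adjusted p = 0.00248).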

How the data were processed

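The deposited table held raw counts per gene for 14 libraries, as its whole-number values show; the authors' normalisation is not part of it. The submitters' processing notes name edgeR, R 4.1.1, Subread, featureCounts and Bowtie2, and the build hg38, which does not match the table's mouse identifiers. How strand and reads with several matches were treated is not given in the sources used here. Symbols, exon lengths and positions came from GENCODE M21 (GRCm38), which matched 42462 of 43346 identifiers (98.0%).

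Libraries were grouped by title. Levels (CPM) are counts divided by TMM-adjusted library size. In R 4.3.3, edgeR 4.0.16 fitted all 14 libraries (TMM, filterByExpr, quasi-likelihood F-test, Benjamini-Hochberg over 18676 genes, threshold 0.05); the code was tested on simulated data. Alternatives were DESeq2 1.42.0, limma 3.58.1 (voom), other scalings, filters, covariates and left-out libraries. A group without counts was set to 3 counts over the group for a bound; limits cover counting error only, since these reads carry no molecular identifiers. Common biological variation was 1.47 (coefficient).

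The members and lists were chosen with earlier results of these data known. The members and TIMPs were always named; of each other list, genes past the test and the gene with the smallest p per comparison could be named, and up to 3 most similar genes (mean of at least 5 CPM, log2 CPM with a prior count of 2). Which of these folds and genes to print was settled after the values were seen.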

Additional observations from a re-analysis of the deposited data

Results flagged for a closer look

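In 26 groups of 4 libraries with a spread, 4 had a library whose gap to the nearest of the others was above Dixon's 95% critical value; chance flags about 1 in 20 groups. Mmp24 was at 22.5 CPM in CAG-GFP Pilo 1, above 11.1 to 12.3 CPM in the other libraries of that group. Adam10 was at 67.4 CPM in DREADD Sham 4, above 40.2 to 44.2 CPM in the others. Timp3 was at 270.0 CPM in DREADD Sham 3, and Timp1 at 2.06 CPM in DREADD Sham 1, where the others were at 0.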

How the results depend on the processing

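The Mmp2 call against CAG-GFP Sham was kept with RLE size factors, DESeq2, limma voom, no filter and a filter of 10 counts in 3 libraries. The count of members called fell to 0 for CAG-GFP Pilo with only its 2 groups in the fit, and for both CAG-GFP Pilo and DREADD Sham with library set 1 alone. It fell to 0 for DREADD Pilo with library set as a covariate, and for all 3 with the CAG-GFP Sham libraries summed. Leaving out 1 library gave 0 to 1 calls for DREADD Pilo and for CAG-GFP Pilo, and 0 for DREADD Sham. DREADD Pilo against CAG-GFP Sham gave 2 with only those groups in the fit (Mmp2 and Adam17), and the interaction gave 1 with DESeq2 (Mmp2). By library total, chosen after seeing the data, members without overlap were 1 in DREADD Pilo against CAG-GFP Pilo and 0 in DREADD Pilo against DREADD Sham. The causes were not tested.

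Replicate numbers showed no clear pairing of the libraries: 1 of 19 same-number pairs correlated above 0.1 and the median was -0.018. This cannot exclude pairing, since library set moved the correlations. CAG-GFP Pilo 3 had -0.38 with DREADD Sham 3 of the other set and 0.43 with DREADD Sham 2 of its own. With the replicate block, members called fell to 0 in each comparison with CAG-GFP Sham, at an edgeR adjusted p for Mmp2 of 0.152 for DREADD Pilo, 0.183 for CAG-GFP Pilo and 0.217 for DREADD Sham.

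Directions that reversed belonged to log2 fold changes that had not passed. In DREADD Pilo against CAG-GFP Pilo these were Mmp16 (1.22, voom), Mmp2 (0.91, voom; 0.39, replicate block; 0.35, without CAG-GFP Pilo 4, in a leave-one-out range of -0.71 to 0.35) and Nid1 (-2.37, without DREADD Pilo 2, in a range of -2.37 to 10.48). In DREADD Pilo against CAG-GFP Sham they were, with the library set covariate, Adam17 (-0.24), Mmp15 (-0.33), Mmp24 (-0.47) and Mmp14 (-1.42), with the replicate block Mmp14 (-0.68) and Mmp21 (-0.93), and with voom Mmp14 (-0.52). Leaving out 1 library gave Mmp14 values of -1.06 to 0.79. Mmp16 in CAG-GFP Pilo against CAG-GFP Sham was -1.73 with voom, Mmp2 in DREADD Pilo against DREADD Sham -0.14 in set 2, Adam10 in DREADD Sham against CAG-GFP Sham 0.15 without CAG-GFP Sham 2 (range -0.47 to 0.15), and Adam33 in the interaction 0.21 without DREADD Sham 4 (range -13.98 to 0.21). Low members such as Reck, Mmp14 and Mmp15 are limited by depth and by the spread between libraries.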
